A study of Mus musculus with 10 samples.

Results

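Zmynd15 and 9 chemokine genes of vascular endothelium, Cxcl16, Cxcl12, Cxcr4, Ackr3, Cx3cl1, Ccl2, Cxcl1, Cxcl9 and Cxcl10, were described in RNA from CD31+ cardiac cells. They were 10 of the 46983 genes in the deposited count table, and all 10 were found there by their Ensembl identifiers. The set was chosen by measured values of the same comparison: Zmynd15 was selected on its lower count on the ketogenic diet, Cxcl16 because it overlaps Zmynd15 on the opposite strand, and the others as chemokines, a chemokine receptor and a scavenging receptor of the endothelium. The cells came from wild-type male C57BL/6J mice that were 8 weeks old when the diets began, and 5 mice were fed a control diet and 5 a ketogenic diet for 14 days. Fat supplied 11.6% of the energy of the control diet and 89.5% of that of the ketogenic diet. CD31+ cells were captured from digested hearts with antibody-coated magnetic beads, a procedure that enriches endothelial cells and does not exclude other CD31+ cells such as platelets and some leukocytes. Each library was made from a single mouse by full-length cDNA amplification, which does not record the strand of the RNA. In such bulk RNA, fewer cells of a type and less RNA per cell cannot be told apart.

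Chemokines are small secreted or membrane-bound proteins that guide migrating cells through G protein-coupled receptors. Cxcl16 and Cx3cl1 are unusual in being made as transmembrane proteins, which tether leukocytes to the endothelial surface until the proteases Adam10 and Adam17 release them. Cxcl12 signals through Cxcr4, whereas Ackr3 binds the same ligand without classical G protein signalling and removes it from the surroundings. Ccl2 and Cxcl1 are inflammatory chemokines that attract monocytes and neutrophils, and Cxcl9 and Cxcl10 are interferon-induced ligands of Cxcr3 on T and NK cells. Zmynd15 is not a chemokine. It encodes a zinc finger protein known as a transcriptional repressor in male germ cells.

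The promoters of the inflammatory and interferon-induced genes are shown because NF-kB and interferon-activated factors are the textbook inducers of these chemokines, with that of Cxcl12, a chemokine expressed without such induction, for contrast. RefSeq promoters of 7 of the 10 genes were used, without Zmynd15, Cxcl16 and Ccl2, and the 250 bases before the start were searched on both strands for the NF-kB consensus, the consensus of the interferon-stimulated response element and the palindrome of the gamma-activated site (TTCNNNGAA). Capitals mark the matches, and each sequence is given 5′ to 3′ in the direction of transcription on GRCm38.p6. The sequence of Cxcl10 covers chr5:92348890-92349139 on the minus strand, that of Cxcl9 chr5:92328080-92328329 on the minus strand, that of Cxcl1 chr5:90890995-90891244 on the plus strand, and that of Cxcl12 chr6:117168285-117168534 on the plus strand.
Cxcl10: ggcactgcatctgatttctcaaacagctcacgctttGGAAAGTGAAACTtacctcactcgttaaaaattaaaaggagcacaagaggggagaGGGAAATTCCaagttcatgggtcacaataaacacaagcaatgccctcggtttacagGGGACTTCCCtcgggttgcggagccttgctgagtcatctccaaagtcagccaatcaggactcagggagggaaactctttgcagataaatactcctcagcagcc
Cxcl9: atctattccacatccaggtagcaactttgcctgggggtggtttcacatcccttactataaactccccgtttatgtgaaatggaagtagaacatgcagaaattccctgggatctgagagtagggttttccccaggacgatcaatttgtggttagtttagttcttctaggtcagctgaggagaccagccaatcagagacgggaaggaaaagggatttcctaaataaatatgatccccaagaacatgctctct
Cxcl1: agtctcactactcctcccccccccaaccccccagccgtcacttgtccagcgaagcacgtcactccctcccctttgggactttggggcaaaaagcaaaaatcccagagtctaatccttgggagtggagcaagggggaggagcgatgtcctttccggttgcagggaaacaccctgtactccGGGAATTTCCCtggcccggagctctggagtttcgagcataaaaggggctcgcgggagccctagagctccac
Cxcl12: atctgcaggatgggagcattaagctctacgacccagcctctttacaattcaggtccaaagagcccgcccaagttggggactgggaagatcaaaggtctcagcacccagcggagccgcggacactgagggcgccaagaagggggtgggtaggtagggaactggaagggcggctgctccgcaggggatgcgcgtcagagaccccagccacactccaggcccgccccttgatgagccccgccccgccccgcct
The Cxcl10 sequence held 3 matches, an interferon-stimulated response element with its first base at −214 from the start and NF-kB consensus matches at −159 and −103. The Cxcl1 sequence held 2 overlapping NF-kB matches on opposite strands, which share a nearly palindromic stretch, at −71 and −70. No match to these 3 motifs was found in the windows of Cxcl9, Cxcl12, Cxcr4, Ackr3 or Cx3cl1. Over 27025 mouse promoters of the same 250 bases, 3.75% held the NF-kB consensus, 0.329% the interferon-stimulated response element and 7.18% the gamma-activated palindrome. A match describes the letters and not a bound factor.

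Control libraries held 10885154 to 12206734 reads assigned to genes and ketogenic libraries 11108020 to 12710861. The cells carried the endothelial label in their transcripts: the summed normalized count of 8 endothelial markers (Pecam1, Cdh5, Kdr, Tek, Tie1, Emcn, Erg and Egfl7) was 46648 to 50037 on the control diet and 45102 to 50903 on the ketogenic diet. Raw counts of some of these markers were nearly the same in every mouse, such as 7356 to 7571 for Cdh5. The sums therefore cannot show that the diets had equal endothelial content. Transcripts of other cells were present, and no listed marker was at 0 in every mouse. The 7 mural markers summed to 28013 to 30201 on the control and 27031 to 30084 on the ketogenic diet. The 10 listed genes of the dissociation response, such as Fos and Jun, summed to 30315 to 32817 and 28313 to 33504. Their relation to the chemokine levels was not tested. The summed markers of B cells (2861 to 4240 against 2273 to 2761) and of mesothelial cells (1090 to 1532 against 702 to 1079) did not overlap between control and ketogenic mice, while those of cardiomyocytes, platelets, macrophages, fibroblasts and mural cells overlapped. The mesothelial sum was nearly all Wt1 (means of 1198 and 933), while Msln and Upk3b had at most 15 and 19 reads in a mouse. Wt1 alone overlapped between the diets (1055 to 1522 on the control and 688 to 1078 on the ketogenic diet). The mesothelial sum thus describes mainly a single gene, and it was apart only with the few reads of Msln and Upk3b added. The counts also had a ceiling. Among 4603 genes with more than 500 reads in a mouse, the highest count was 2.10 reads per base of exon, near the 2 that a single read for each start position and strand would allow, and 92 genes lay above 1.5. Removal of duplicate reads is not given in the sources used here, and the cause of the ceiling was not tested. Near such a ceiling a difference in RNA gives a smaller difference in counts. A count held near the ceiling also becomes lower when scaled to a larger library, and ketogenic libraries had the larger median total. Of the 10 genes, Cxcl12 (65.3% to 76.2% of start positions), Cxcl1 (55.1% to 63.3%) and Ackr3 (51.6% to 55.7%) were closest to the ceiling, while Zmynd15 used 3.24% to 5.36%. The part of this scaling in the values of Cxcl1 and Ackr3 was not tested beyond the correction given below.

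Of the 10 genes, Zmynd15 fell on the ketogenic diet and none of the 9 chemokine genes passed the test across all genes. All 10 genes had enough reads to be tested, and the comparison of 15949 genes with edgeR's quasi-likelihood test called 1.34% of them at a Benjamini-Hochberg adjusted p under 0.05, against 1 of the 10 genes, which was chosen by this comparison. Of the 9 chemokine genes, 0 were called by edgeR, DESeq2 or limma, where DESeq2 called 5.3% of all genes and limma 1.52% or 1.37% on log2 RPKM with 1 or 0.1 added, and 3 (Ackr3, Cxcl12 and Cxcl1) had an unadjusted p under 0.05, as had 17.8% of all tested genes. Normalized counts of the diets did not overlap for 1 of the 10 genes, Zmynd15, and for 4.34% of all tested genes. Log2 fold changes (ketogenic minus control) were below 0 for 6 of the 9 and above 0 for 3. The median over the 10 genes was −0.11, beside −0.0057 over all tested genes. Without Zmynd15, which was selected on its fall, the middle value of the 9 chemokine genes was also −0.11, that of Cxcl1. Their values ran from −0.15 for Cxcl10 to 0.21 for Cxcl9, and a common shift of these genes was not tested. The lowest bound of the 9 genes' 95% intervals was a fold of 0.746, for Ccl2, and the highest 1.45, for Cxcl9, while each gene had a narrower interval of its own, such as 0.872 to 0.981 for Ackr3.

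**Figure D1:**
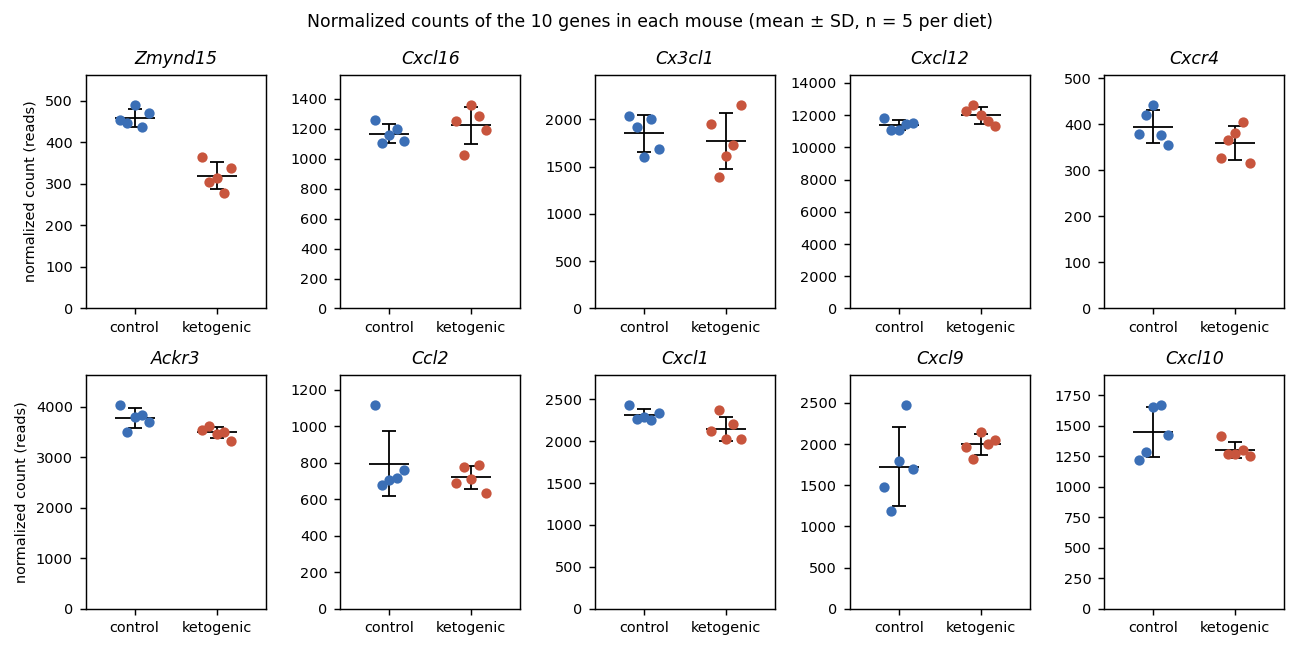
Normalized counts (reads, y axis from 0) of the 10 genes in each of 5 control (blue) and 5 ketogenic (red) mice; points are mice in the order of their numbers, the long bar is the mean and the error bar the SD. The diets are apart for Zmynd15 (435.8 to 489.6 on the control and 277.9 to 364.1 on the ketogenic diet) and overlap for the other 9 genes, and Ccl2 shows 1 high control mouse at 1113.5.

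Zmynd15 (ENSMUSG00000040829.14) lies on chromosome 11 of GRCm38 from 70459433 to 70466202 on the plus strand. Its normalized counts, which are reads scaled to a common library size, were 452.5, 447.2, 489.6, 435.8 and 469.7 in control mice 1 to 5, and 364.1, 303.2, 315.1, 277.9 and 338.0 in ketogenic mice 1 to 5. All 5 ketogenic mice lay below all 5 control mice. The means were 459.0 ± 21.04 and 319.7 ± 33.0 (SD, n = 5 each), and the log2 fold change was −0.52 (standard error, SE, 0.0794, 95% interval −0.69 to −0.35), or a fold of 0.697. These values chose the gene and are given as a description. Leaving out each mouse in turn gave log2 fold changes of −0.57 to −0.47. With a score of cardiomyocyte markers added to the model the value was −0.44 and the gene was no longer called. Most genes lost the call in that fit, which called 29 genes in all, 19 of them among the 213 called without the score. The summed cardiomyocyte markers were 3335 to 4586 on the control diet and 4157 to 6549 on the ketogenic diet, and their part in the fall was not tested beyond that fit.

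Cxcl16 (ENSMUSG00000018920.11), a scavenger receptor and chemokine in a single transmembrane protein, lies head to head with Zmynd15 on the minus strand, from 70453983 to 70459984. Its normalized counts were 1260.4, 1103.1, 1159.4, 1198.0 and 1115.4 in control mice 1 to 5 and 1249.2, 1026.7, 1358.8, 1283.8 and 1193.6 in ketogenic mice 1 to 5. The diets overlapped, with 2 ketogenic mice above and 1 below all control mice. The means were 1167 ± 64.2 and 1222 ± 125 (SD, n = 5 each), with a log2 fold change of 0.067 (SE 0.0700, 95% interval −0.09 to 0.22, adjusted p = 0.651 from edgeR).

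Both genes begin within the same stretch, 70459433 to 70459984, whose 552 bases are exon in both. Reads from these bases cannot be assigned to a gene without strand, and the setting of the counting program for such reads is not given in the sources used here. Outside it, Zmynd15 has 3857 of its 4409 exon bases and Cxcl16 2469 of its 3021 free of any other gene. For each 100 reads of Cxcl16, 35.9, 40.5, 42.2, 36.4 and 42.1 reads of Zmynd15 were counted in control mice 1 to 5, and 29.1, 29.5, 23.2, 21.7 and 28.3 in ketogenic mice 1 to 5. The ratio within a library was thus lower in every ketogenic mouse than in every control mouse (26.4 ± 3.67 against 39.4 ± 3.08, SD, n = 5 each), which again rests on the counts that chose Zmynd15.

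**Figure D2:**
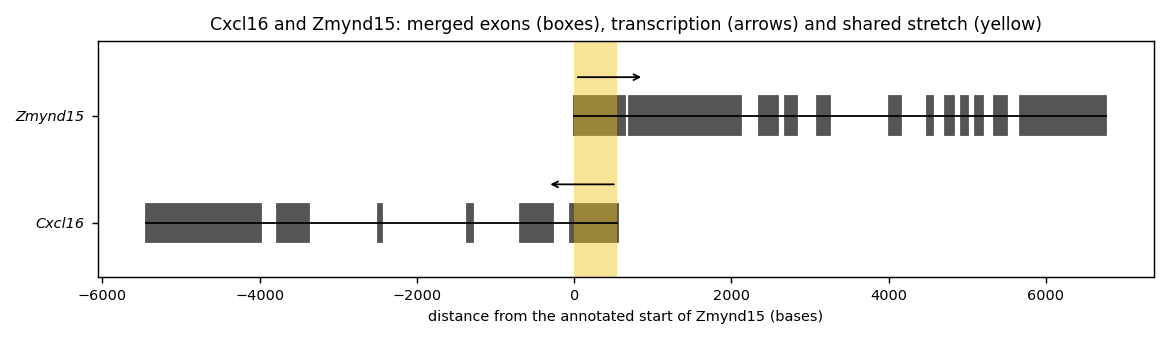
Map of Cxcl16 and Zmynd15 along chromosome 11, by distance in bases from the annotated start of Zmynd15; boxes are exons merged over transcripts, lines the whole genes and arrows the direction of transcription. The genes run away from each other and share the 552 bases in yellow, all exon in both.

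The genes beside this pair showed no common change. Within 100 kb of Zmynd15 the annotation listed 16 genes, of which 4 had no reads and 8 were tested. Of the 7 tested beside Zmynd15, 0 were called by edgeR, DESeq2 or limma and 0 had an unadjusted p under 0.05. Next to Cxcl16 lie Med11, a subunit of the Mediator complex (log2 fold change −0.068, adjusted p = 0.634 from edgeR), and Arrb2, the beta-arrestin that internalizes chemokine receptors (−0.012, adjusted p = 0.978). The others were Pelp1 (0.14), the proteasome subunit Psmb6 (−0.031), the phospholipase Pld2 (−0.17) and the kinase Mink1 (−0.077), with adjusted p-values from 0.391 to 0.725. Gm12314, Tm4sf5, Vmo1 and Gltpd2 were left out of the test, with 8 reads or fewer in every mouse.

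Cx3cl1 (ENSMUSG00000031778.12, chromosome 8 from 94772009 to 94782427), the ligand of Cx3cr1, varied among mice of both diets. Its normalized counts were 2032.6, 1923.0, 1603.4, 2005.5 and 1688.7 in control mice 1 to 5 and 1954.6, 1392.6, 1607.1, 1727.9 and 2151.3 in ketogenic mice 1 to 5. Ketogenic mice were both the lowest and the highest of the 10. The means were 1851 ± 193 and 1767 ± 296 (SD, n = 5 each), with a log2 fold change of −0.066 (SE 0.108, 95% interval −0.30 to 0.17, adjusted p = 0.790 from edgeR). The sign turned without ketogenic mouse 2 (0.0085) and with the cardiomyocyte marker score in the model (0.13).

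The receptors of the tethered chemokines were tested and not called. Cxcr6, the receptor of Cxcl16 on T and NK cells, had 4 to 25 reads per mouse, with normalized counts of 12.0 ± 5.36 and 16.1 ± 10.3 on the control and ketogenic diets (SD, n = 5 each). Cx3cr1, carried by monocytes and macrophages, had normalized counts of 488.2, 14.3, 99.4, 8.42 and 146.8 in control mice 1 to 5 and 33.5, 36.6, 87.4, 176.9 and 59.2 in ketogenic mice 1 to 5 (adjusted p = 0.591 from edgeR). Control mouse 1 and ketogenic mouse 4, the highest of each diet, also had the highest summed macrophage markers of their diet, at 8560 and 3896. These receptor genes were singled out as partners of the chemokines after their values had been seen.

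Cxcl12 (ENSMUSG00000061353.11, chromosome 6 from 117168535 to 117181367), the homeostatic chemokine that retains and recruits Cxcr4-bearing cells, had the highest counts of the 10 genes. Its normalized counts were 11853.3, 11099.7, 11051.1, 11430.8 and 11487.1 in control mice 1 to 5 and 12261.6, 12628.4, 12004.0, 11659.1 and 11353.1 in ketogenic mice 1 to 5. Of the ketogenic mice, 3 lay above all control mice and the others within their range. The means were 11384 ± 326 and 11981 ± 499 (SD, n = 5 each), with a log2 fold change of 0.074 (SE 0.0318, 95% interval 0.0045 to 0.14, adjusted p = 0.251 from edgeR across all genes, which was 0.0388 before adjustment). After correction of the counts for the number of start positions, an alternative chosen after the data had been seen, the log2 fold change was 0.20 (adjusted p = 0.0221 from edgeR), and 1.52% of all genes were called. With that correction and each mouse left out in turn, it was 0.18 to 0.22 and the adjusted p 0.0261 to 0.0527, above 0.05 without control mouse 2 (0.0507), control mouse 3 (0.0527) or ketogenic mouse 3 (0.0504). The correction assumes that all exon positions are used evenly, so its size is approximate.

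Cxcr4 (ENSMUSG00000045382.6, chromosome 1 from 128588199 to 128592293), the signalling receptor of Cxcl12, was counted 331 to 442 times per mouse. Its normalized counts were 380.2, 421.4, 442.0, 376.9 and 356.0 in control mice 1 to 5 and 326.6, 367.0, 380.9, 404.3 and 316.2 in ketogenic mice 1 to 5. The ranges overlapped, with 2 ketogenic mice below all control mice. The means were 395 ± 35.3 and 359 ± 37.0 (SD, n = 5 each), a log2 fold change of −0.14 (SE 0.0896, 95% interval −0.33 to 0.06, adjusted p = 0.441 from edgeR).

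Ackr3 (ENSMUSG00000044337.5, chromosome 1 from 90203980 to 90216751), the scavenging receptor that also binds Cxcl12, had normalized counts of 4027.4, 3493.3, 3801.0, 3843.6 and 3700.3 in control mice 1 to 5 and 3539.3, 3612.2, 3467.6, 3504.4 and 3330.3 in ketogenic mice 1 to 5. Only control mouse 2 lay within the ketogenic range. The means were 3773 ± 196 and 3491 ± 104 (SD, n = 5 each), a log2 fold change of −0.11 (SE 0.0390, 95% interval −0.20 to −0.03, adjusted p = 0.165 from edgeR across all genes, which was 0.0139 before adjustment). Its raw counts moved only between 3455 and 3729 over the 10 mice, and with the correction for start positions the value was −0.14 (adjusted p = 0.115).

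Ccl2 (ENSMUSG00000035385.5, chromosome 11 from 82035571 to 82037453), the monocyte attractant, had normalized counts of 1113.5, 679.8, 703.9, 716.9 and 761.4 in control mice 1 to 5 and 687.7, 774.7, 712.8, 788.2 and 632.3 in ketogenic mice 1 to 5. Control mouse 1 stood above the 9 other mice, which lay between 632.3 and 788.2 whatever the diet. The means were 795 ± 180 and 719 ± 64.1 (SD, n = 5 each), a log2 fold change of −0.14 (SE 0.127, 95% interval −0.42 to 0.13, adjusted p = 0.585 from edgeR), and without control mouse 1 it was 0.0073. The same mouse had the highest summed macrophage markers (8560, against 2151 to 3896 in the 9 others). It also had the highest normalized counts of the macrophage chemokines Ccl3 (354.2, against 51.2 to 178.0) and Ccl4 (583.2, against 107.7 to 312.6). The part of macrophages in the Ccl2 value was not tested beyond a fit with the macrophage marker score as a covariate, which gave 0.012.

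Cxcl1 (ENSMUSG00000029380.11, chromosome 5 from 90891241 to 90893115), a ligand of the neutrophil receptor Cxcr2 and the gene with overlapping NF-kB matches in its promoter, had normalized counts of 2426.8, 2264.4, 2285.6, 2252.9 and 2331.4 in control mice 1 to 5 and 2117.4, 2367.0, 2027.3, 2204.1 and 2029.2 in ketogenic mice 1 to 5. Of the ketogenic mice, 4 lay below all control mice, and ketogenic mouse 2 lay among them. The means were 2312 ± 70.7 and 2149 ± 142 (SD, n = 5 each), a log2 fold change of −0.11 (SE 0.0458, 95% interval −0.21 to −0.0060, adjusted p = 0.252 from edgeR across all genes, which was 0.0395 before adjustment). With the correction for start positions it was −0.14 (adjusted p = 0.233).

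Cxcl9 (ENSMUSG00000029417.9, chromosome 5 from 92321347 to 92328079), induced mainly by interferon gamma, was more variable on the control diet. Its normalized counts were 1477.5, 1187.0, 1791.8, 2469.8 and 1693.7 in control mice 1 to 5 and 1960.6, 1813.9, 2147.1, 2004.9 and 2045.6 in ketogenic mice 1 to 5. The ketogenic mice lay within the control range, and the coefficient of variation was 27.7% on the control and 6.13% on the ketogenic diet. The means were 1724 ± 477 and 1994 ± 122 (SD, n = 5 each), a log2 fold change of 0.21 (SE 0.149, 95% interval −0.11 to 0.54, adjusted p = 0.486 from edgeR). It was 0.11 without control mouse 2, 0.38 without control mouse 4 and −0.040 with the cardiomyocyte marker score in the model.

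Cxcl10 (ENSMUSG00000034855.13, chromosome 5 from 92346638 to 92348889), which neighbours Cxcl9 and is induced by interferons of both types, had normalized counts of 1214.0, 1280.4, 1647.9, 1665.4 and 1424.2 in control mice 1 to 5 and 1415.9, 1264.0, 1268.4, 1300.3 and 1254.7 in ketogenic mice 1 to 5. Again all ketogenic mice lay within the control range, with coefficients of variation of 14.3% and 5.13%. The means were 1446 ± 207 and 1301 ± 66.7 (SD, n = 5 each), a log2 fold change of −0.15 (SE 0.0856, 95% interval −0.34 to 0.03, adjusted p = 0.379 from edgeR). Control mouse 4 was the highest of the 10 mice for both Cxcl9 and Cxcl10. The difference in spread between the diets was seen in the data and was not tested. Cxcl10 shares 133 exon bases with Art3 on the opposite strand. Cxcr3, the receptor of Cxcl9 and Cxcl10, had 1 to 25 reads per mouse, too few to be tested, with normalized counts of 3.92 ± 2.91 and 10.8 ± 9.06 (SD, n = 5 each).

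**Figure D3:**
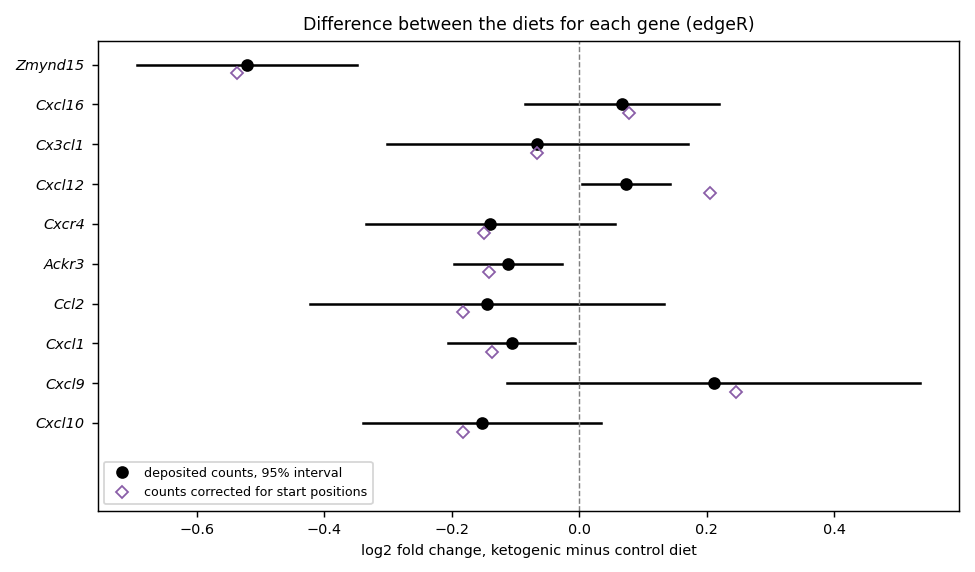
Log2 fold change (ketogenic minus control, x axis) of each gene from edgeR; black points are the deposited counts with their 95% interval, and open diamonds the values after correction for start positions. The interval of Zmynd15 runs from −0.69 to −0.35, and Cxcl12 moves furthest under the correction, from 0.074 to 0.20.

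Levels of different genes were compared per length, in RPKM, the deposited reads scaled to gene length and library size. Over the 10 mice, mean RPKM was 89.8 for Ackr3, 75.9 for Cxcl12 and 67.7 for Cxcl1, which were above at least 96.2% of tested genes. It was 48.9 for Cxcl9, 34.0 for Ccl2, 30.7 for Cx3cl1, 24.1 for Cxcl10, 20.5 for Cxcl16 and 11.9 for Cxcr4, and 3.60 for Zmynd15, which was above 41.4% of tested genes. The order of the means was the same in both diets. The ranges over mice were separate between Ackr3 and Cxcl12, between Cxcl16 and Cxcr4 and between Cxcr4 and Zmynd15, while the other neighbours in the order overlapped, and Ccl2 exceeded Cx3cl1 in 6 of 10 mice. The order depended on the gene lengths used. The lengths behind the deposited RPKM equalled the exon lengths added up over all transcripts for 64.3% of 25077 genes and the merged exon length for 54.7%, classes that share genes. The rule behind them was not settled: for Zmynd15 the deposited length was 9276 bases, beside 12142 bases added up and 4409 merged. Per kilobase of merged exon, the mean normalized count was 1429 for Cxcl12, 1190 for Cxcl1 and 1085 for Ackr3, then 665 for Ccl2, 616 for Cxcl9, 610 for Cxcl10, 460 for Cx3cl1, 396 for Cxcl16, 209 for Cxcr4 and 88.3 for Zmynd15. The 3 lowest genes, Cxcl16, Cxcr4 and Zmynd15, kept their places in both orders, and Cxcl12 was higher than Cxcl1 in 10 of 10 mice.

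**Figure D4:**
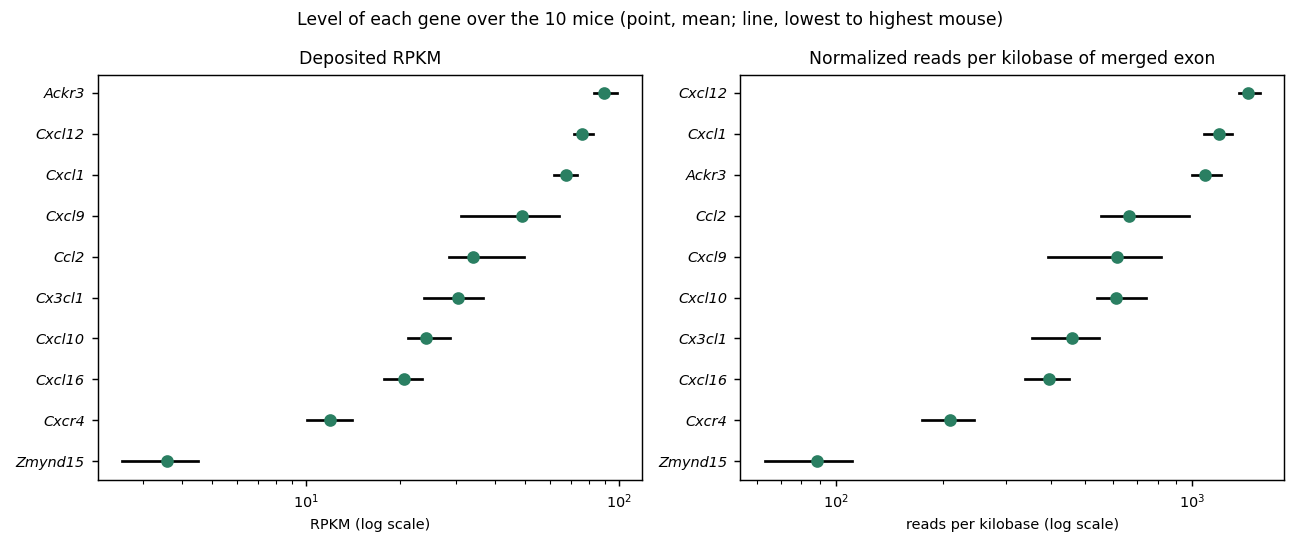
Level of each gene on a log axis, as deposited RPKM (left) and as normalized reads per kilobase of merged exon (right); points are means over 10 mice and lines run from the lowest to the highest mouse. Ackr3 leads on the left at 89.8 RPKM and Cxcl12 on the right at 1429 reads per kilobase, and Zmynd15 is lowest in both panels.

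How the genes varied together among mice of the same diet was measured for 6 pairs, on deviations of log2 CPM from the diet mean over the 10 mice, with two-sided exact permutation tests within diets and adjustment over the 6 pairs. Zmynd15 and Cxcl16 did not vary together detectably (Pearson r = −0.0034, exact permutation p = 0.995, adjusted p = 0.995, and Spearman rho = −0.079, p = 0.857, adjusted p = 0.857), and r was 0.13 without the 2 mice farthest from the median of Zmynd15. Cxcl12 and Ackr3 had r = 0.72 (exact permutation p = 0.0116, adjusted p = 0.0348) and rho = 0.67 (p = 0.0419, adjusted p = 0.151), and r was 0.63 without the 2 mice farthest from the median of Cxcl12. Both are near the ceiling of start positions and are divided by the same library sizes, and on corrected counts their r was 0.11 (exact permutation p = 0.776, adjusted p = 0.931). Ccl2 and Cxcl1 had r = 0.65 (exact permutation p = 0.00583, adjusted p = 0.0348) and rho = 0.62 (p = 0.0504, adjusted p = 0.151), r = 0.70 without the 2 mice farthest from the median of Ccl2, and r = 0.51 on corrected counts (exact permutation p = 0.0519, adjusted p = 0.267). Cxcl9 and Cxcl10 had r = 0.75 (exact permutation p = 0.0846, adjusted p = 0.169) and rho = 0.66 (p = 0.109, adjusted p = 0.217), with r = 0.63 without the 2 mice farthest from the median of Cxcl9. For Cxcl12 and Cxcr4 r was −0.18 (exact permutation p = 0.646, adjusted p = 0.775) and rho −0.24 (p = 0.558, adjusted p = 0.670), with r = −0.80 without the 2 mice farthest from the median of Cxcl12. On corrected counts r of this pair was −0.48 (exact permutation p = 0.186, adjusted p = 0.372), and 0.13 without the 2 farthest mice. For Cxcl16 and Cx3cl1 r was 0.42 (exact permutation p = 0.347, adjusted p = 0.520) and rho 0.30 (p = 0.459, adjusted p = 0.670), with r = 0.22 without the 2 farthest mice.

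Among all tested genes, those whose within-diet deviations over the 10 mice were most like Zmynd15 were Supv3l1, which encodes a mitochondrial RNA helicase (r = 0.962), Ears2, a mitochondrial glutamyl-tRNA synthetase (r = 0.919), and the protocadherin gene Pcdhb15 (r = 0.915). For Cxcl16 they were Gm5900 (r = 0.942), Fndc3b (r = 0.941) and the vesicle fusion gene Vamp4 (r = 0.940). For Cxcl12 they were Ndufv1, a subunit of respiratory complex I (r = 0.957), Gm9493 (r = 0.943) and the scaffold gene Iqgap1 (r = 0.941). These are the highest of 15949 values over the same 10 libraries and are given as a description.

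The rest of the chemokine system showed no gene past the test in edgeR. Of 31 other chemokine ligands, 17 were tested, 0 were called and 5 had an unadjusted p under 0.05, with a median log2 fold change of −0.20. Over all tested genes these shares were 1.34% called and 17.8% with an unadjusted p under 0.05, and the median was −0.0057. Of 21 other chemokine receptors, 17 were tested, 0 were called and 6 had an unadjusted p under 0.05, with a median of 0.11. Limma called 0 genes of either list. DESeq2, which called 806 of 15207 genes (5.3%), called 1 ligand, Pf4, and 4 receptors, Cxcr5, Ccr7, Ccr2 and Ackr2.

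By RPKM, the leading ligands of this list were Ppbp, Pf4 and Ccl21a. The platelet chemokines Ppbp (98.1 RPKM) and Pf4 (52.0 RPKM) had log2 fold changes of −0.64 (SE 0.239, adjusted p = 0.192 from edgeR) and −0.46 (SE 0.138, adjusted p = 0.113). Summed platelet markers were 2582 to 4694 on the control and 1019 to 3223 on the ketogenic diet, and their part in these values was not tested. Ccl21a (45.1 RPKM), an attractant of Ccr7-bearing cells, had a log2 fold change of −0.0016 (SE 0.0631, adjusted p = 0.992 from edgeR).

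The leading receptors included those of lymphocytes. Ccr7 (51.6 RPKM), which guides lymphocytes and dendritic cells to lymphatic vessels, had a log2 fold change of −0.41 (SE 0.125, adjusted p = 0.125 from edgeR). Cxcr5 (16.2 RPKM), the follicular homing receptor of B cells, had normalized counts of 1000.1, 561.6, 699.8, 568.5 and 550.2 in control mice 1 to 5 and 559.5, 446.4, 321.0, 361.5 and 446.5 in ketogenic mice 1 to 5, a log2 fold change of −0.66 (SE 0.186, adjusted p = 0.0998 from edgeR). The B cell marker Cd79a, a chain of the B cell receptor, fell by 0.46 on the log2 scale (adjusted p = 0.0221 from edgeR), and the summed B cell markers were lower in every ketogenic mouse, beside which the part of B cells in the Cxcr5 value was not tested. Ccrl2 (33.8 RPKM), an atypical receptor that presents chemerin on endothelium, had a log2 fold change of 0.11 (SE 0.0411, adjusted p = 0.188 from edgeR).

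Ccr2, the receptor of Ccl2 on monocytes and on dendritic cells derived from them, had normalized counts of 62.6, 19.1, 78.7, 40.0 and 37.2 in control mice 1 to 5 and 80.9, 81.5, 68.7, 228.4 and 82.9 in ketogenic mice 1 to 5. Of the ketogenic mice, 4 lay above all control mice, and the log2 fold change was 1.20 (SE 0.407, adjusted p = 0.158 from edgeR). The dendritic cell markers Mgl2 and Cd209a rose by 2.89 and 2.01 on the log2 scale (adjusted p = 0.00378 and 0.0250 from edgeR), 2 of the 5 tested of 6 dendritic cell markers. The other tested markers were Itgax (0.83, adjusted p = 0.570), Zbtb46 (0.093, adjusted p = 0.556) and Clec9a (−0.0040, adjusted p = 0.989). The sum of the list, most of it Zbtb46 and Clec9a, was 1301 to 1659 on the control and 1589 to 1736 on the ketogenic diet. The part of dendritic cells in the Ccr2 value was not tested. Ccr2 was singled out after its values had been seen.

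Of 16 genes of chemokine shedding, trimming and receptor signalling, all 16 were tested, 0 were called by edgeR, DESeq2 or limma, and 5 had an unadjusted p under 0.05, beside 17.8% of all tested genes (median log2 fold change −0.052). The sheddase Adam10 (43.1 RPKM) had a log2 fold change of 0.13 (adjusted p = 0.166 from edgeR), the inhibitory G protein subunit Gnai2 (38.1 RPKM) −0.077 (adjusted p = 0.227) and the beta subunit Gnb1 (26.7 RPKM) −0.014 (adjusted p = 0.866). Of 20 regulators of inflammatory and interferon-induced chemokines, all 20 were tested and 0 were called by edgeR or limma, 4 had an unadjusted p under 0.05 (median −0.048), and DESeq2 called 2, Nfkbiz and Ikbkb, beside 5.3% of all genes. The leading genes were Zfp36, which destabilizes cytokine mRNA (172 RPKM, −0.067, adjusted p = 0.426 from edgeR), the NF-kB inhibitor Nfkbia (158 RPKM, −0.070, adjusted p = 0.396) and the stress-induced factor Atf3 (118 RPKM, −0.054, adjusted p = 0.512). Their raw counts were nearly the same in every mouse, such as 3582 to 3611 for Zfp36, so a change in these genes could not be seen well in this table.

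**Figure D5:**
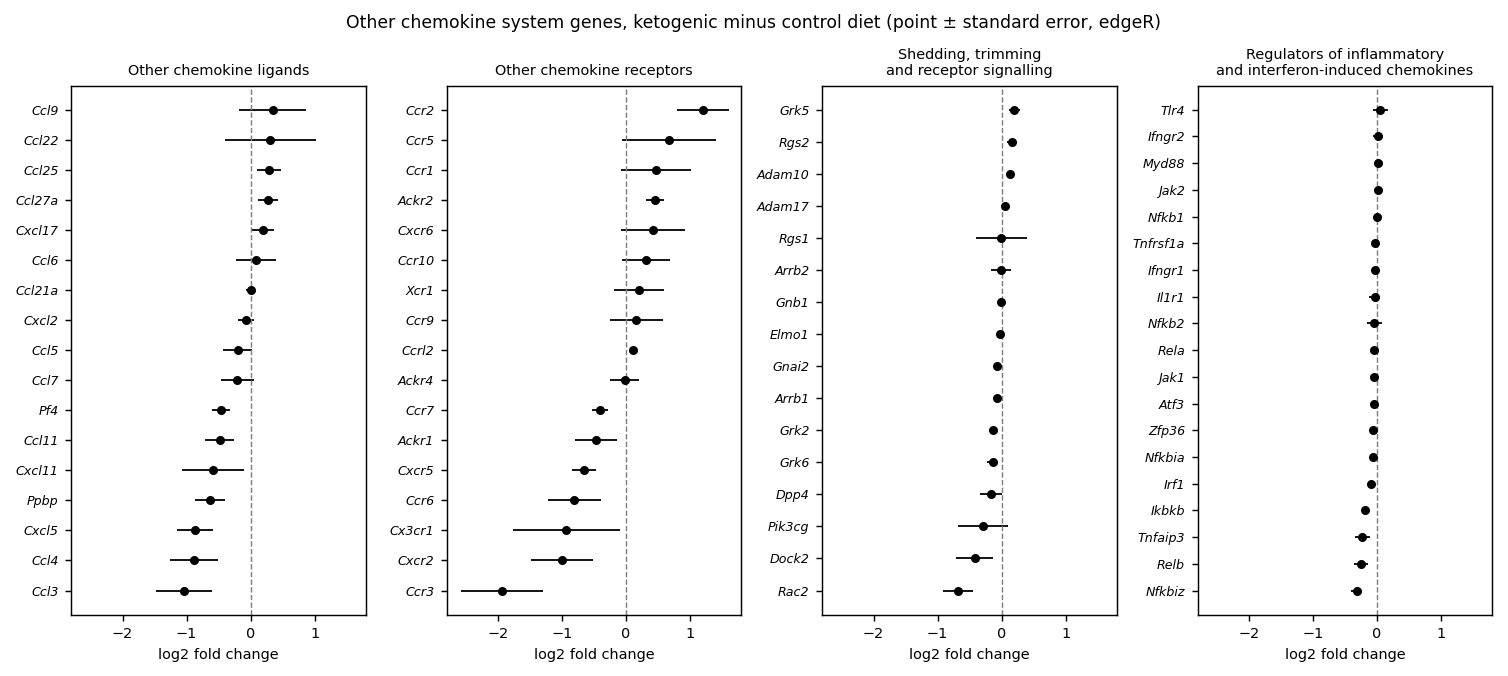
Log2 fold change (ketogenic minus control, x axis) of tested genes of 4 lists: other chemokine ligands, other receptors, genes of shedding, trimming and receptor signalling, and regulators; points are edgeR estimates and bars the standard error. Ligand and receptor genes spread widely, from −1.94 for Ccr3 to 1.20 for Ccr2, and signalling genes and regulators lie nearer to 0. Ccr3 had 0 to 25 reads per mouse, and some regulators had nearly fixed counts, such as 3582 to 3611 for Zfp36. The spread of a list therefore does not measure its response to the diet.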

How the data were processed

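RNA of CD31+ cardiac cells from 5 mice on a control and 5 on a ketogenic diet was analysed. The authors deposited raw counts per gene and RPKM values made from them, and the submitters' processing notes name bcl2fastq 2.17.1.14, STAR 2.3, HTSeq 0.6.0 and the mm10 build. The strand and overlap settings of counting and any removal of duplicates are not given in the sources used here. Columns were assigned to mice by their titles. Identifiers were matched to GENCODE M21 on GRCm38 (46488 of 46983 without regard to version, 37902 with the same version, and 9 of the 10 genes, Cx3cl1 being the exception). The genes and all lists were chosen with earlier results of these data known.

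Counts were normalized by TMM, filtered by filterByExpr and tested with edgeR 4.0.16 (quasi-likelihood F-test, R 4.3.3) with Benjamini-Hochberg adjustment over 15949 genes. The study's tool, DESeq2 (1.42.0 here), served as an alternative. Standard errors (SE) were taken from the fold change and F. Log2 CPM used a prior count of 2. All pairs of replicates differed by more than sampling noise. The steps were tested on simulated data.

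Alternatives were other scalings and filters, DESeq2, limma 3.58.1 on log2 of RPKM plus a pseudocount of 1 or 0.1, a replicate block, cardiomyocyte or macrophage marker scores as covariates, and each mouse left out. The correction for start positions, −N ln(1 − count/N) with N the exon bases times 2 strands, was added after the data had been seen, and the motif consensuses were changed after a first search, that of NF-kB to a wider and that of interferon to a longer one. Named beside the 10 genes were list genes with an adjusted p under 0.05, the 3 genes of highest RPKM per list, genes with reads within 100 kb of Zmynd15, and the 3 genes most like Zmynd15, Cxcl16 and Cxcl12. Any other gene named was chosen after its values were seen. A regulator gene that was tested and counted is not reported here by name or in the plots.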

Additional observations from a re-analysis of the deposited data

Results flagged for a closer look

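Within each diet the highest and lowest mouse of each of the 10 genes, of the reads of Zmynd15 per read of Cxcl16 and of each summed marker list was compared with its neighbour, as the gap divided by the range of the 5 mice (critical ratio 0.71). Of 48 groups of 5 mice examined, 4 stood out, where chance gives about 1 in 20, or 2.4. The normalized count of Ccl2 in control mouse 1 was 1113.5, with a ratio of 0.812. That of Cxcl10 in ketogenic mouse 1 was 1415.9, with a ratio of 0.717. The summed macrophage markers of control mouse 1 were 8560, with a ratio of 0.774, and those of ketogenic mouse 4 were 3896, with a ratio of 0.822.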

How the results depend on the processing

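Of 220 alternative log2 fold changes of the 10 genes, 213 kept the direction and side of the threshold, 1 lost the call, 1 gained it and 5 changed sign. With the cardiomyocyte marker score as a covariate, 29 genes in all were called instead of 213, 0 of the 10 genes and 0 of the genes beside Zmynd15, which had a log2 fold change of −0.44 (adjusted p = 0.131 from edgeR, over all alternatives 2.19e-06 to 0.131), Cx3cl1 was at 0.13, Cxcl9 at −0.040, Cxcl16 at 0.022, Cxcr4 at −0.26, Cxcl10 at −0.25, and 1 signalling gene, Dpp4, was called. With the macrophage score Ccl2 was at 0.012 and 1 receptor, Ccr2, was called. DESeq2 called 806 genes in all, 211 of them among the 213, including 1 other ligand, 4 other receptors and 2 regulators. Leaving out each mouse gave 86 (without control mouse 2) to 492 calls (without ketogenic mouse 2), of which 204 were among the 213, and also 109, 98, 134 and 152 without control mouse 1, 3, 4 and 5 and 134, 108, 95 and 134 without ketogenic mouse 1, 3, 4 and 5. It gave 0 to 3 called regulators (3 without ketogenic mouse 2: Nfkbiz, Ikbkb and Irf1), −0.14 to 0.0085 for Cx3cl1, −0.19 to 0.0073 for Ccl2, 0.11 to 0.38 for Cxcl9, 0.033 to 0.12 for Cxcl16, −0.19 to −0.092 for Cxcr4 and −0.21 to −0.097 for Cxcl10. On counts corrected for start positions, an alternative added after the data had been seen, 242 genes in all and 2 of the 10 were called, with Cxcl12 at 0.20, r was 0.0025 for Zmynd15 and Cxcl16, 0.11 for Cxcl12 and Ackr3 and 0.51 for Ccl2 and Cxcl1, and 3 of the 10 genes kept their place in the order of levels, as 3 did per kilobase of merged exon. On log2(RPKM + 1), r of Cxcl12 and Ackr3 was 0.68 (exact permutation, adjusted p = 0.0610). Without the 2 farthest mice, r was 0.13 for Zmynd15 and Cxcl16 and −0.80 for Cxcl12 and Cxcr4. The causes of these differences between alternatives were not tested.

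The labels number the mice 1 to 5 in both diets, but same-numbered mice did not deviate together (correlations over 15949 genes from −0.13 to 0.094). The values thus showed no pairing by number, although a weak pairing could go unseen among the differences between single mice. With the number as a replicate block, 113 genes were called, 90 of them among the 213, and 1 of the 10 genes. Cxcr3 had too few reads to be tested, and how far the ceiling of start positions limits Cxcl12, Cxcl1 and Ackr3 was not tested beyond the corrected counts.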
